A study of Mus musculus with 6 samples.

Results

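The nuclear-encoded genes of the respiratory chain and of ATP synthase were followed through ribosome footprints of mouse oocytes. The members were all genes of the deposited table whose symbol begins with Nduf, Uqcr, Sdh (a to d), Atp5, or Cox followed by 4 to 8, and whose mean level over the 6 libraries was above 0. This gave 87 members among 22416 genes. They were 38 Nduf genes of complex I, 8 assembly factors of complex I (Ndufaf), 4 genes of complex II, 8 of complex III, 16 of complex IV and 13 of complex V. The libraries came from wild-type mice of 4 weeks that had received 5 IU of PMSG, a gonadotropin that makes follicles grow, 44 h before oocytes were collected. WT_FGO held full-size oocytes still arrested in meiotic prophase, with the germinal vesicle intact, WT_MII held oocytes matured in culture to metaphase II, and Treat_MII held oocytes matured to the same stage in the presence of the treatment. The labels call that group only "Treat"; in the study the treatment is BYBX, a ligand that stabilizes RNA G-quadruplexes (rG4s, folded stretches of G-rich RNA), and the controls received the solvent DMSO. Each library pooled 500 oocytes, each group had n = 2 libraries, and nothing says that the libraries of a group came from separate animals, so p-values measure only the spread between these libraries. The question put to the data was how footprints on these mRNAs differ with maturation and with the treatment.

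Complexes I to IV of the inner mitochondrial membrane pass electrons from NADH and succinate to oxygen, and complexes I, III and IV pump protons, which complex V (ATP synthase) uses to make ATP. Most subunits are encoded in the nucleus, translated in the cytosol and imported, and a small set of core subunits of complexes I, III, IV and V is encoded by mitochondrial DNA. Complex II is built from nuclear genes alone and is also an enzyme of the tricarboxylic acid cycle. The oocyte supplies the embryo with its mitochondria, and oxidative phosphorylation of pyruvate is its main source of ATP.

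Values were FPKM, footprint fragments scaled to coding sequence length and library depth, and most could be turned back into whole reads. The library totals ran from 94309 to 107251 reads in WT_FGO, from 164972 to 230907 in WT_MII and from 275604 to 331304 in Treat_MII, so the deeper groups resolve lower levels. A read is worth more FPKM in a short gene, and the members were short. Their median coding length was 439 bases against 1434 bases over all genes tested, and 45 of 86 members (52.3%) lay under 450 bases against 5.46% of all genes tested. A member had 37 reads in all at the median, summed over the 6 libraries, with a range from 1 to 511, and 16 members had fewer than 10. For that reason members were also pooled, as reads per 100000 library reads. Folds against a group with no read are given as lower bounds, with a floor of 3 reads taken per library. Against a group with 1 to 3 reads in a library and no more in the other, the ratio of pooled reads is given with its exact 95% interval. Floors and intervals cover counting error only. Levels are relative to the total of a library, and footprints alone cannot tell apart fewer mRNA copies from fewer ribosomes on each, nor fewer contributing oocytes from less RNA in each. The summed level of 10 oocyte marker genes was 45387 and 28855 FPKM in WT_FGO, 7208 and 7727 in WT_MII and 12433 and 12557 in Treat_MII, so it was lower in both metaphase II groups and lowest in WT_MII, as was the pooled level of the members below. All 10 were detected except Dazl, which was at 0 in WT_FGO_2. Not every marker followed the sum. Dazl was at 23.7 and 0 FPKM in WT_FGO, 651 and 683 in WT_MII and 577 and 613 in Treat_MII. Ddx4 was at 87.4 and 145 FPKM in WT_FGO, 94.4 and 103 in WT_MII and 108 and 125 in Treat_MII. Whether the marker differences bear on those of the members was not tested. The summed level of 9 granulosa cell markers was 1246 FPKM in WT_FGO_2, with Inha at 747 FPKM, and between 122 and 269 FPKM in the other 5 libraries. The 4 cumulus cell markers summed to between 0 and 8.65 FPKM, with Tnfaip6 at 0 in all libraries, and 7 stroma or blood markers to between 36.7 and 91.0 FPKM. Pooled members were at 994 and 1014 reads per 100000 in WT_FGO_1 and WT_FGO_2, each within the interval of the other. This total hides opposite differences. Members of at least 450 coding bases took 415 (interval 375 to 458) and 504 (463 to 549), and these intervals do not meet. Shorter members took 579 (532 to 629) and 509 (467 to 554). The part of the granulosa signal in pooled or single members was not tested.

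Repeated sequence limits what could be seen of this family. Respiratory chain genes have left many processed pseudogenes in the genome, and a footprint of about 28 bases that fits several places may not be counted. Of the 95 symbols that match the naming rule, 8 were listed at 0 in all libraries. In 5 of these, Atp5g1, Atp5g2, Atp5l, Atp5md and Ndufab1, every 28-base word within a coding exon occurs elsewhere in the genome. Words across exon junctions were not examined. Nothing can be said about the footprints of these 5 subunits. All such words of the member Ndufb4 also occur elsewhere, and it still had 4 reads over the 6 libraries. The other symbols at 0 were Cox6a2, Cox7a1 and Cox7b2, isoforms known from muscle or testis. Of the 10 members with more than 70% of their words elsewhere, among them Ndufs3, Cox7c, Atp5h and Uqcrb, none had more than 19 reads over the 6 libraries. Uqcrc1 differed from them. Only 0.618% of its words occur elsewhere, and it still had 3 reads in all, every one in Treat_MII_1, whereas its partner Uqcrc2 had 36 and 47 reads in WT_FGO.

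**Figure D1:**
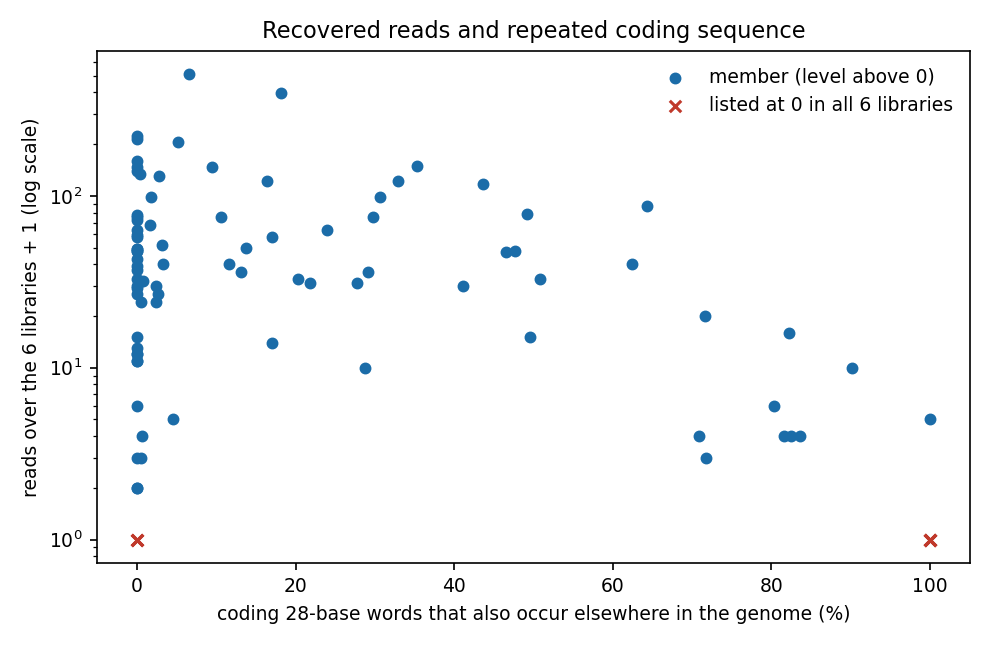
Each point is a respiratory chain gene symbol with a known coding length. The x axis gives the percent of its coding 28-base words that also occur elsewhere in the genome, and the y axis its reads over the 6 libraries plus 1, on a log scale. The 5 symbols with all words elsewhere and no read are drawn on top of each other at the lower right, and no member with more than 70% of words elsewhere exceeded 19 reads.

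Maturation was examined first, by comparing WT_MII with WT_FGO. Footprints on complexes I, III, IV and V were lower in both WT_MII libraries than in both WT_FGO libraries, and those on complex II were not. All members together took 994 and 1014 reads per 100000 in WT_FGO and 219 and 298 in WT_MII, that is 1004 ± 14.1 against 259 ± 56.3 (SD, n = 2), 3.88 times as much in WT_FGO. Complex I gave 376 and 400.0 reads per 100000 in WT_FGO against 70.3 and 83.6 in WT_MII, a ratio of 5.05. Complex III gave 142 and 131 against 20.003 and 23.8, a ratio of 6.22. Complex IV gave 179 and 185 against 49.1 and 67.6, a ratio of 3.12, and complex V gave 246 and 223 against 51.5 and 82.3, a ratio of 3.50. Across these 4 complexes no library of WT_MII reached a library of WT_FGO. Complex II gave 28.6 and 36.4 reads per 100000 in WT_FGO and 20.6 and 33.3 in WT_MII, so its groups overlapped. The 45 members under 450 bases took 579 and 509 reads per 100000 in WT_FGO against 123 and 165 in WT_MII, a ratio of 3.78. The 41 longer members took 415 and 504 against 95.8 and 134, a ratio of 4.00, so short and long members differed by about as much between the stages. No test was made on pooled reads.

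**Figure D2:**
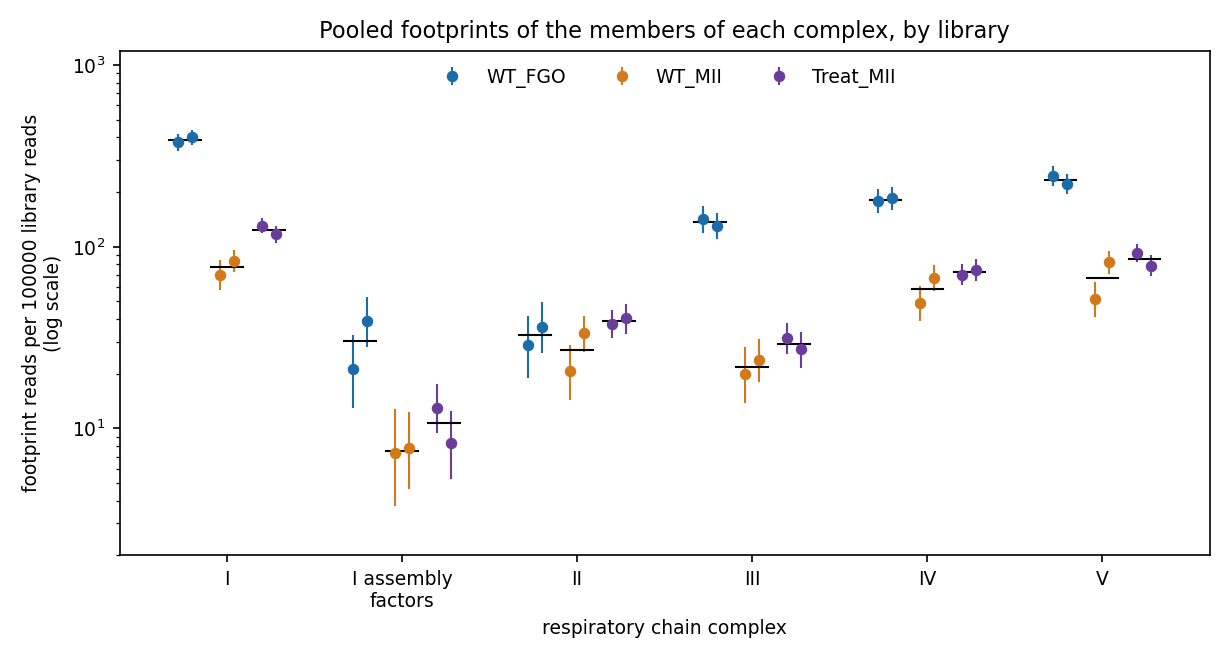
Footprint reads of all members of a complex per 100000 reads of the library, on a log scale, for the 6 libraries in 3 groups. Points are libraries, vertical bars are exact 95% binomial intervals and horizontal lines are group means. The WT_FGO points lie above all metaphase II points in complexes I, III, IV and V, whereas the complex II points lie between 20.6 and 40.3 in every group.

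Gene by gene, limma called 25 of the 87 members lower and 0 higher in WT_MII (adjusted p under 0.05), where 3.09% of the 15129 genes tested were called lower and 3.67% higher. At an unadjusted p under 0.05 in the same fit, 51 members were lower and 2 higher, against 13.1% and 9.64% of all genes tested. For 59 members (67.8%) the WT_MII libraries were both under the WT_FGO pair, and for 3 both over it, against 25.8% and 15.3% of all genes tested. The median difference on the log2(FPKM + 1) scale was -2.47 over the members and -0.44 over all genes tested. It was -2.16 over the 71 members that were above the floor in either group, with those at the floor in WT_MII set to their bound. Of the calls over all genes 54.3% were higher in WT_MII. That share was 71.3% after centring each library on the median ratio, where 20 members were called lower and 0 higher (2.02% and 5.01% of all genes). It was 33.4% with precision weights. It was also below the main share at a mean of at least 5 FPKM and without either WT_FGO library. The calls rested on the spread shared by the 3 groups. With WT_FGO and WT_MII fitted alone, or without either Treat_MII library, 0 members and 0 of all genes were called. Without WT_FGO_1, 11 members were called lower against 7.04% of all genes, and without WT_FGO_2, the library with the granulosa signal, 11 against 5.62%. With precision weights (voom) on the recovered reads, an alternative added after the data were seen, 41 of 86 members were called lower against 11% of 14723 genes. All 25 called members were lower in every alternative that included them. Their WT_MII and WT_FGO libraries did not overlap, so only centring, quantile normalization and precision weights could have turned a direction. In the other alternatives the direction was fixed beforehand. Of the 25, 13 were called under each of a pseudocount of 0.1, a mean of at least 5 FPKM, centring, quantile normalization and the replicate term.

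**Figure D3:**
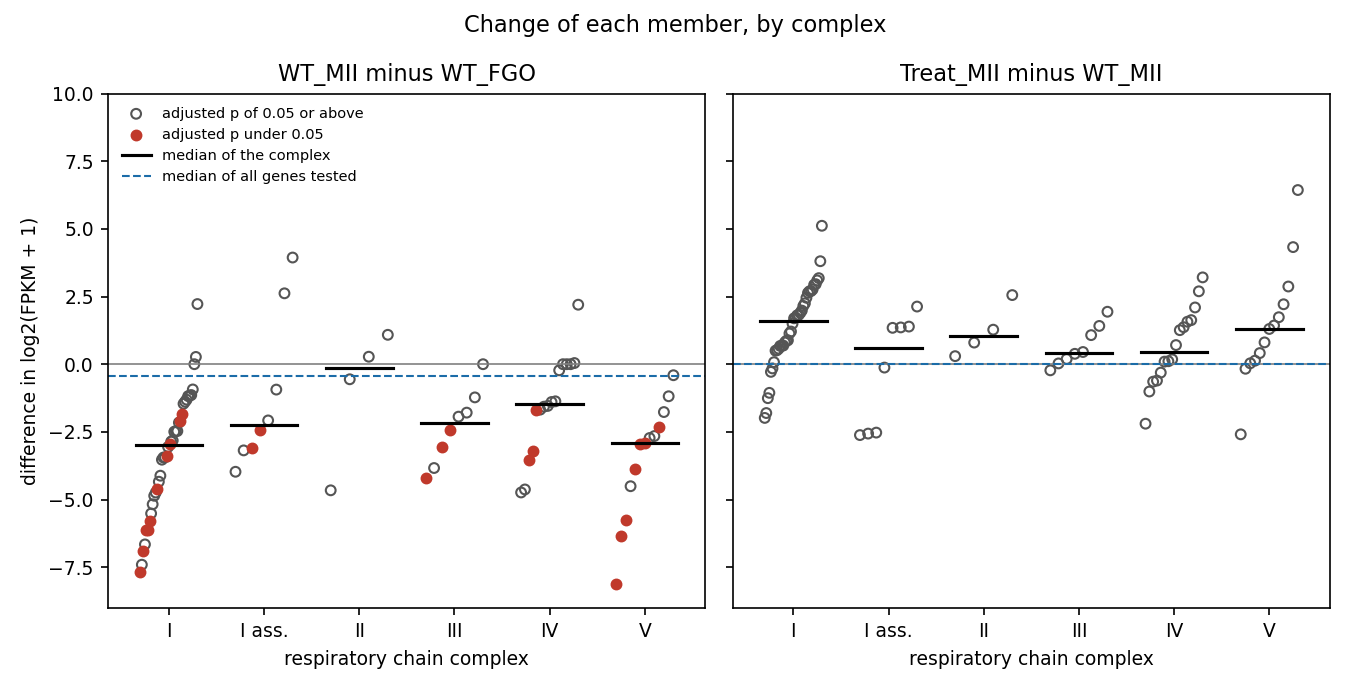
Difference in log2(FPKM + 1) of each of the 87 members, by complex, for WT_MII minus WT_FGO (left) and Treat_MII minus WT_MII (right). Filled points have an adjusted p under 0.05 in limma (25 on the left, 0 on the right), black bars are medians of a complex and the dashed line is the median of all genes tested (-0.44 and 0). Members with no read in a group lie at the extremes, where the size of the difference depends on the pseudocount.

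Complex I takes electrons from NADH. Its 7 core subunits that are nuclear-encoded carry the flavin and the iron-sulfur clusters, and its accessory subunits surround them. Of the core subunits, Ndufs8, which holds iron-sulfur clusters, fell in WT_MII. It was at 33.3 and 88.0 FPKM in WT_FGO, from only 2 and 6 reads. With no read in either WT_MII library, it was at least 2.47-fold lower there (adjusted p = 0.0194, limma). Ndufv1, the flavin subunit that oxidizes NADH, was at 45.4 and 86.5 FPKM against 17.3 and 43.2 (adjusted p = 0.387). Ndufs1, the largest subunit, overlapped between the groups, at 9.67 and 51.0 FPKM against 13.8 and 3.95. Together the core subunits took 39.2 and 66.2 reads per 100000 in WT_FGO and 7.88 and 8.23 in WT_MII, a ratio of 6.55.

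Among the 30 accessory subunits, 8 were called lower and 0 higher. Ndufb11, a membrane subunit (GRCm38 X, 20615326 to 20617619), was at 749 and 659 FPKM in WT_FGO and at 26.8 and 28.7 in WT_MII. It fell by 4.61 ± 0.38 (SE) on the log2 scale (adjusted p = 0.00293, limma), and the ratio of pooled reads was 25.1 (interval 10.2 to 80.1). Ndufa9, a subunit of the arm that holds the clusters, was at 127 and 119.7 FPKM against 15.6 and 14.8 and fell by 2.94 ± 0.45 (adjusted p = 0.0196). Ndufa10 was at 89.6 and 158 FPKM in WT_FGO with no read in WT_MII, at least 8.44-fold lower (adjusted p = 0.00898). Ndufa2, Ndufa3, Ndufa5, Ndufa8 and Ndufb5 were the other accessory subunits called. Ndufb3 was at 238 and 119.5 FPKM against no read in WT_MII, at least 3.58-fold lower, and did not pass the test (adjusted p = 0.0504). Ndufb1-ps, which carries a pseudogene symbol, was at 186 and 218 FPKM and listed at 0 in both WT_MII libraries (adjusted p = 0.00367), and its reads could not be recovered. Ndufa4 had the highest mean level of the Nduf genes. Its protein is now placed in complex IV. It was at 2284 and 1478 FPKM in WT_FGO and at 862 and 1074 in WT_MII (adjusted p = 0.102). It held 14.9% and 9.09% of the complex I reads in the WT_FGO libraries, but 30.2% and 31.6% in WT_MII, and 26.2% and 28.9% in Treat_MII. Without it the ratio of complex I between WT_FGO and WT_MII was 6.44.

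The start codons of several complex I genes share a context called TISU (translation initiator of short 5′-UTR), known from mRNAs with very short leaders and frequent among mitochondrial genes. It was found in the longest coding transcript of 8 of 86 members (9.30%) against 0.927% of 14992 genes tested. Windows of some of these members follow, from complex I and, in the last line, complex III. They are printed to show the stretch these genes share, from 9 bases before the start codon, with the matched part, start codon included, in capitals (GENCODE M21, GRCm38).
Ndufa6, chr15:82354217-82354237, minus strand: ctcggcAAGATGGCGGCcgcg
Ndufa9, chr6:126849101-126849121, minus strand: tgggagAAGATGGCGGCcgcc
Ndufs4, chr13:114388045-114388065, minus strand: tacaggAAGATGGCGGCggtc
Ndufs6, chr13:73328435-73328455, minus strand: accggcAAGATGGCGGCggtg
Ndufs7, chr10:80249467-80249487, plus strand: gaggccAAGATGGCGGCgctg
Uqcrc1, chr9:108936710-108936730, plus strand: agttagAAGATGGCGGCgtcc
The 8 members with this context took 69.98 and 103 reads per 100000 in WT_FGO, 12.7 and 12.6 in WT_MII, and 25.1 and 23.6 in Treat_MII. The ratio of WT_FGO to WT_MII was 6.86. Within the group 2 of the 8, Ndufa9 and Ndufa2, were called lower at maturation, whereas Uqcrc1 had no read in the WT libraries and Ndufs6 had 2 reads there, both in WT_MII_2.

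Of the 8 assembly factors, which help build complex I and are not part of it, Ndufaf4 and Ndufaf7 were called lower and none higher. Ndufaf4 was at 128 and 112 FPKM in WT_FGO and at 20.9 and 22.4 in WT_MII (adjusted p = 0.0295, limma), with a ratio of pooled reads of 5.50 (interval 1.87 to 19.5). Ndufaf7, a methyltransferase for a core subunit, was at 57.4 and 82.0 FPKM against 4.10 and 11.7 (adjusted p = 0.047). Ndufaf1 and Ndufaf6 had no read in WT_FGO and between 1 and 7 reads in each WT_MII library, without passing the test (adjusted p = 0.189 and 0.157). Ndufaf1 was at 42.9 and 4.37 FPKM in WT_MII and Ndufaf6 at 6.07 and 4.34.

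Complex II took another part of the chain's reads at each stage. Its pooled reads in WT_FGO were 1.205 times those in WT_MII, and without WT_MII_1 the log2 ratio of WT_MII to WT_FGO turned from -0.27 to 0.037. Its share of the reads of complexes I to V came to 2.94% and 3.73% among the WT_FGO libraries (exact 95% binomial intervals 1.95% to 4.26% and 2.67% to 5.07%), 9.74% and 11.5% in WT_MII (6.84% to 13.3% and 9.16% to 14.1%), and 10.4% and 11.9% in Treat_MII (8.75% to 12.3% and 9.92% to 14.2%). The intervals of the WT_FGO libraries did not meet those of the other libraries. None of its 4 genes was called in any contrast. Sdha, the flavoprotein that oxidizes succinate (chromosome 13, 74322254 to 74350280), was at 53.2 and 88.9 FPKM in WT_FGO, 73.0 and 95.7 in WT_MII and 90.9 and 117 in Treat_MII, and the maturation difference was 0.28 ± 0.45 (SE). Sdhc, an anchor in the membrane, was at 20.9 and 92.0 FPKM, then 95.6 and 94.0, then 167 and 165. With Ndufaf1 and Ndufaf6 it made up the 3 members that were higher in each WT_MII library than in any WT_FGO library, with a difference of 1.09 ± 0.70 (adjusted p = 0.473). Sdhd, the other anchor, was at 111 and 78.2 FPKM, 25.4 and 154, and 184 and 129. Sdhb, the iron-sulfur subunit, was the exception, at 138 and 121 FPKM in WT_FGO, 0 and 25.6 in WT_MII and 28.5 and 30.02 in Treat_MII (maturation adjusted p = 0.123). Sdha alone held between 37.0% and 70.6% of the complex II reads.

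**Figure D4:**
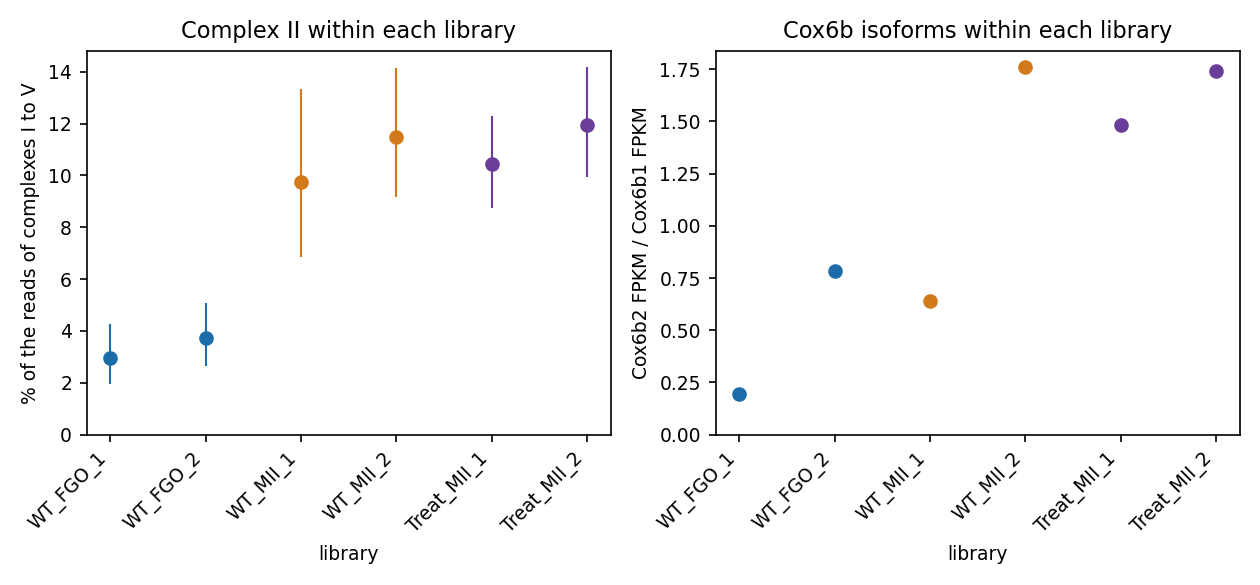
Left, reads of complex II as a percent of the reads of complexes I to V in each library, with exact 95% binomial intervals. Right, FPKM of Cox6b2 divided by FPKM of Cox6b1 in each library, without intervals. The WT_FGO libraries sit at 2.94% and 3.73% on the left and the other 4 between 9.74% and 11.9%, whereas on the right the WT_FGO and WT_MII libraries overlap.

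Complex III carries electrons from ubiquinol to cytochrome c. Of its 8 genes 3 were called lower. Uqcrq, a small subunit next to cytochrome b, had the highest level of the complex at 1721 and 1337 FPKM against 183 and 179.8, and fell by 3.06 ± 0.29 (SE) on the log2 scale (adjusted p = 0.00442, limma). Uqcrh, the hinge subunit, fell from 1231 and 1048 FPKM to 136 and 324 (adjusted p = 0.035). Uqcrc2, a core protein of the matrix side (chromosome 7, 120635176 to 120659524), was at 281 and 322 FPKM against 35.7 and 6.37 and fell by 4.20 ± 0.80 (adjusted p = 0.037). Uqcrfs1, the Rieske iron-sulfur protein that accepts the electron from ubiquinol, was at 77.4 and 102 FPKM against 29.5 and 47.4 (adjusted p = 0.209). All 5 small subunits were lower in both WT_MII libraries than in both WT_FGO libraries, against 25.8% of all genes tested. For Uqcrb, with 90.1% of its words elsewhere in the genome, this rested on 3 and 2 reads in WT_FGO against 0 and 2 in WT_MII.

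Complex IV reduces oxygen. Its 11 general subunits were separated from 4 isoforms of particular tissues and from Cox5b-ps. The calls were Cox4i1, Cox6c and Cox7a2, all general subunits. Cox7a2 had the highest level of the complex, at 1192 and 1648 FPKM in WT_FGO and 73.0 and 313 in WT_MII, and it fell by 3.20 ± 0.66 (SE) on the log2 scale (adjusted p = 0.0453, limma). Cox4i1, which binds the regulatory nucleotides, fell from 489 and 534 FPKM to 19.3 and 96.4 (adjusted p = 0.0451), and Cox6c from 791 and 613 to 186 and 247 (adjusted p = 0.0313). Cox5a, an early assembling subunit, was at 363 and 192 FPKM against 69.2 and 148 (adjusted p = 0.199). Cox8a, a small subunit, overlapped between the groups, at 287 and 252 FPKM in WT_FGO and 300.4 and 176 in WT_MII.

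Among the tissue isoforms, Cox6b2 and Cox4i2 had footprints in every library. Cox4i2, known from lung, was at 185 and 90.3 FPKM in WT_FGO, 47.0 and 33.6 in WT_MII and 17.5 and 21.1 in Treat_MII. Both WT_MII libraries were thus lower, with 4 reads each, and the maturation difference of -1.68 ± 0.54 (SE) did not pass the test (adjusted p = 0.135, limma). Cox6b2, known as the isoform of testis and sperm, was at 184 and 509 FPKM in WT_FGO, 211 and 473 in WT_MII and 434 and 612 in Treat_MII, with a maturation difference of 0.04 ± 0.61 (SE). Its general counterpart Cox6b1 was at 945 and 651 FPKM, then 329 and 269, then 292 and 352 (maturation adjusted p = 0.0508). Cox6b2 divided by Cox6b1, both as FPKM, gave 0.195 and 0.782 before maturation. The quotients were 0.640 and 1.76 after maturation without the treatment, against 1.49 and 1.74 with it. The WT_FGO and WT_MII ratios overlapped, and the Treat_MII ratios lay above both WT_FGO ratios. Cox6b2 held 4.14% and 11.1% of the complex IV reads in WT_FGO, 17.3% and 28.2% in WT_MII and 24.9% and 33.2% in Treat_MII. Without it the ratio of complex IV between WT_FGO and WT_MII was 3.77. Cox6b2, Cox4i2, Cox6b1 and Cox8a were named after their values were seen.

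Complex V makes ATP with a catalytic head (F1), a ring of c subunits in the membrane and a stalk that holds head and ring together. All 13 of its genes had a maturation difference below 0, as had 8823 of the 15129 genes tested. Of the 13, 7 were called lower, against 3.09% of all genes tested. Atp5e, the small epsilon subunit of F1 (chromosome 2, 174461072 to 174464105), had the highest mean level of complex V, at 4146 and 1972 FPKM in WT_FGO against 311 and 472 in WT_MII, and fell by 2.90 ± 0.41 (SE) on the log2 scale (adjusted p = 0.0154, limma). Its coding sequence is 156 bases long, and these levels were 61, 33, 8 and 17 reads. Atp5a1, the alpha subunit of the head, was at 83.1 and 78.7 FPKM in WT_FGO with no read in WT_MII, at least 8.61-fold lower (adjusted p = 0.0068). Atp5b, the catalytic beta subunit, which alternates with alpha in the same ring (chromosome 10, 128083273 to 128090391), was at 347 and 353 FPKM in WT_FGO and at 225 and 308 in WT_MII, a difference of -0.41 ± 0.30 (adjusted p = 0.49). It had the most reads of all members, 511 over the 6 libraries, and it held 22.4% and 25.1% of the complex V reads in WT_FGO against 69.4% and 59.5% in WT_MII. Without Atp5b, complex V took 191 and 167 reads per 100000 in WT_FGO and 15.8 and 33.3 in WT_MII, a ratio of 7.29. Atp5c1, the gamma subunit that turns inside the head, was at 47.4 and 72.9 FPKM against 6.77 and 38.7 (adjusted p = 0.381). Alpha was thus called and beta and gamma were not, and the differences between their changes were not tested.

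The stalk and membrane parts held the other calls of complex V. Atp5j, a stalk subunit (chromosome 16, 84827866 to 84835625), was at 327 and 230.2 FPKM in WT_FGO with no read in either WT_MII library, at least 5.79-fold lower, and had the lowest adjusted p of the members (0.00181). Atp5o, the subunit that joins stalk and head, was at 171 and 123 FPKM against 0 and 6.36 (adjusted p = 0.0297), with a ratio of pooled reads of 39.3 (interval 6.28 to 1628). Atp5g3, the only gene of the c ring with footprints here, fell from 376 and 287 FPKM to 43.0 and 41.0 (adjusted p = 0.0374). Atp5k and Atp5mpl, small proteins of the membrane part, fell from 797 and 657 FPKM to 28.5 and 81.3 (adjusted p = 0.0143) and from 2011 and 1983 FPKM to 279 and 572 (adjusted p = 0.0195).

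**Figure D5:**
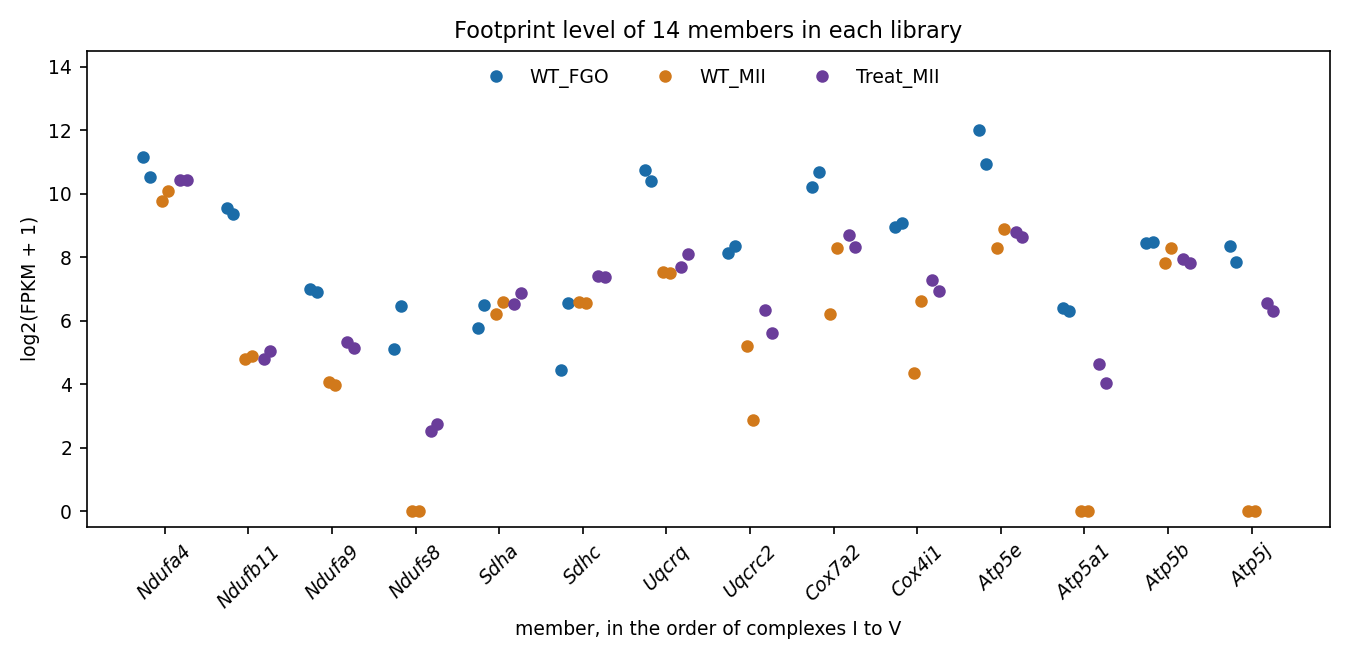
Footprint level, as log2(FPKM + 1), of 14 members in each of the 6 libraries, in the order of complexes I to V. Points are libraries. Ndufs8, Atp5a1 and Atp5j are at 0 in both WT_MII libraries, Atp5b lies between 224 and 353 FPKM in all 6, and Sdha and Sdhc are not lower in WT_MII than in WT_FGO.

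The treatment was examined by comparing Treat_MII with WT_MII. Pooled footprints of the members were higher in both treated libraries, at 375 and 346 reads per 100000 against 219 and 298, that is 360.3 ± 20.6 against 259 ± 56.3 (SD, n = 2), a ratio of 1.39 that ran from 1.16 to 1.71 over the pairs of libraries. The gap between the WT_MII libraries was wider than the gap between WT_MII_2 and Treat_MII_2. Complex I gave 130.4 and 117 reads per 100000 against 70.3 and 83.6, a ratio of 1.61. The ratios were 1.45 for complex II, which without WT_MII_2 exceeded complex I (log2 ratios 0.92 and 0.81), 1.34 for complex III, 1.24 for complex IV and 1.28 for complex V, where the treated libraries (92.1 and 78.7) overlapped with WT_MII (51.5 and 82.3). Without Atp5b the complex V ratio was 1.96, with 53.1 and 43.2 reads per 100000 against 15.8 and 33.3. All treated values of complexes I, III, IV and V stayed below both WT_FGO values.

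No member was called in either direction in limma, and neither was any gene of the 15129 tested (0% higher and 0% lower). At an unadjusted p under 0.05, 13 members were higher (14.9%) and 2 lower in Treat_MII, against 3.8% and 2.02% of all genes. Both treated libraries lay above both WT_MII libraries for 32 members (36.8%) and below both for 6, against 16.2% and 15.6% of all genes tested. The median difference was 1.14 on the log2(FPKM + 1) scale over the members and 0 over all genes tested, and over the 62 members above the floor in either group it was 0.47 with bounds. The treated libraries were the deepest, and 25 members were at or under the floor of 3 reads in both groups; the part of depth in these differences was not tested. The calls depended on single libraries: without WT_MII_1, 1 member was called higher and 2 lower, against 0.112% and 2.29% of all genes. Without WT_MII_2, 6 were called higher and 1 lower, against 0.205% and 2.56%. Without Treat_MII_1, 3 were called higher against 2.4%, and without Treat_MII_2, 6 against 2.64%, so several of these counts were near the share over all genes. The median of the members was 0.40 without WT_MII_1.

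The members with the largest differences above 0 were at 0 in the control group. Atp5j had no read in WT_MII and was at 93.2 and 78.4 FPKM in Treat_MII, at least 1.78-fold higher (adjusted p = 0.249, limma). Atp5a1 had no read in WT_MII and was at 23.7 and 15.3 FPKM, at least 2.07-fold higher (adjusted p = 0.494). With precision weights on the recovered reads these were the 2 members called higher (adjusted p = 0.00477 and 0.0015, limma), where 0.462% of 14723 genes were called higher. Both stayed below their WT_FGO levels of 327 and 230.2 FPKM and 83.1 and 78.7 FPKM. Ndufb1-ps, listed at 0 in WT_MII, was at 53.0 and 21.2 FPKM (adjusted p = 0.447). Atp5mpl was at 971 and 1001 FPKM in Treat_MII against 279 and 572, a difference of 1.30 ± 0.35 (SE), and Uqcrc2 at 80.0 and 48.1 FPKM against 35.7 and 6.37.

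In the other direction, Ndufv3, an accessory subunit near the flavin, was at 2.03 and 7.31 FPKM in Treat_MII against 20.3 and 17.4 in WT_MII (adjusted p = 0.836), with a ratio of pooled reads of 4.22 (interval 1.25 to 18.2). Ndufa7 was at 17.8 and 21.4 FPKM against 89.4 and 25.6 (adjusted p = 0.932), with a ratio of 2.68 (interval 0.682 to 12.5). Ndufaf6 had no read in Treat_MII and 1 read in each WT_MII library. Atp5b, the member with the most reads, was at 245 and 224 FPKM against 225 and 308, a difference of -0.17 ± 0.30 (SE).

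Since the treatment binds rG4s, the G-quadruplex motif was searched in the members' longest coding transcripts, read in the sense of the mRNA. It was defined as GGG or longer, occurring 4 times, with 1 to 7 bases between each. It was present in 3 of 86 members (3.49%) against 19.7% of 14992 genes tested. The members have short transcripts, with a median 5′-UTR of 102.5 bases and 3′-UTR of 154 bases against 161 and 841 bases over all genes tested. The motifs are printed because they are the only ones of the family, with the runs of G in capitals (GENCODE M21, GRCm38).
Atp5mpl, 5′-UTR, chr12:111966846-111966870, minus strand: GGGtccGGGaccGGGtgcggtGGGG
Ndufv1, coding sequence, chr19:4009879-4009904, minus strand: GGGaggccGGGccatGGGagcccGGG
Uqcrc1, 3′-UTR, chr9:108949527-108949548, plus strand: GGGcGGGGccGGGcacccGGGG
Footprints of Atp5mpl were higher in both treated libraries, as given above, Ndufv1 was at 25.8 and 23.3 FPKM in Treat_MII within the WT_MII values of 17.3 and 43.2, and Uqcrc1 had too few reads to compare. Whether these stretches fold was not measured in these libraries.

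Treated oocytes were also set against WT_FGO, with the same WT_FGO libraries as in the maturation contrast. Of the 87 members, 8 were called lower in Treat_MII and 0 higher, against 0.998% and 2.86% of all genes tested. Higher calls were 74.1% of all calls, and 90.1% after centring, where again 8 members were called lower (0.43% of all genes). They were 29.8% with precision weights. They were also a smaller part of the calls with at least 60 reads, at a mean of at least 5 FPKM and without either WT_FGO library. The 8 members called lower were Atp5e, Atp5k, Uqcrh, Uqcrq and Ndufb11, which were also called at maturation, and Ndufa7, Ndufa12 and Ndufv3. Ndufb11 was at 26.7 and 32.0 FPKM in Treat_MII against 749 and 659 (adjusted p = 0.00348, limma), Uqcrq at 205 and 274 FPKM against 1721 and 1337 (adjusted p = 0.00776), and Ndufa12, an accessory subunit with 71.7% of its words elsewhere in the genome, at 13.5 and 8.12 FPKM against 119 and 146 (adjusted p = 0.0258).

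Other nuclear genes of the respiratory chain were set beside the members. Most were chosen as assembly factors, electron carriers, regulators or enzymes of coenzyme Q synthesis. Among them was Cyc1, a subunit of complex III that the naming rule leaves out. Of 57 listed genes 47 could be tested. At maturation 0 were called lower and 1 higher, Cox15, an enzyme of heme a synthesis, with no read in WT_FGO and 53.8 and 17.5 FPKM in WT_MII (adjusted p = 0.0308, limma). Their median difference was -0.72, against -2.47 over the members and -0.44 over all genes tested. Many of these genes were at low levels and listed at 0 in a WT_FGO library, so a fall could hardly be seen or called in them. The part of low levels in the gap between these medians was not tested. In the treatment contrast 0 were called, and the median was -0.24 against 1.14 over the members. Etfa, named after its values were seen, which feeds electrons from fatty acid oxidation into the chain, was at 74.3 and 93.3 FPKM in WT_FGO, 91.0 and 117 in WT_MII and 106 and 167 in Treat_MII. The mitochondrially encoded subunits, which are translated by mitochondrial ribosomes, summed to 4722 ± 553 FPKM (SD, n = 2) in WT_FGO, 3717 ± 693 in WT_MII and 4817 ± 536 in the treated group, with 5 of 13 genes at 0 in all libraries.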

How the data were processed

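Ribo-lite, ribosome profiling of small samples, was done by the authors on 6 libraries of mouse oocytes, 2 in each of 3 groups, grouped here by their titles. Deposited values were FPKM per gene, made by the authors on mm10. The submitters' processing notes name cutadapt 1.14, Bowtie2 2.2.2 and STAR 2.5.3a, whereas the counter, its gene annotation and any use of molecular identifiers are not given in the sources used here. Of 22442 entries, 26 with a repeated name were left out, with the highest mean kept. FPKM multiplied by the union coding length of GENCODE mouse release M21 (GRCm38) fell on whole reads, within 0.02 reads, in all 6 libraries for 97.9% of genes with a length and a signal. The 15129 genes at or above 1 FPKM on average (14723 with reads) were fitted as log2(FPKM + 1) with limma 3.58.1 in R 4.3.3 (lmFit, eBayes with trend), all 6 libraries in 1 fit without covariates. Benjamini-Hochberg adjustment ran over all genes tested, and adjusted p-values under 0.05 were called. Fold changes on the log2(FPKM + 1) scale understate the change between low values above 0. Against a group with no read, their size depends on the pseudocount and can exceed the bound given from reads. All 87 members were tested, and reads were recovered for 86 (not for Ndufb1-ps). Not every member's own values are reported here. Words of 28 bases, taken within single coding exons, were counted in the GRCm38 genome. Intervals are exact 95% binomial ones. Same-numbered libraries correlated at 0.0376, 0.0181 and 0.0189 in their deviations from the group means, over 2736 genes, and were not taken as pairs.

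Members, lists, tests and the rule for named genes were chosen with earlier results of these data known. Named were members called in any contrast, the member with the highest mean FPKM of each complex, fixed core subunits, and the 3 largest rises and falls without overlap at maturation and under treatment. Alternatives were another pseudocount, other filters on low values, centring, quantile normalization, a replicate term, only the compared groups, leaving out each library, other ways to pool, and, added after seeing the data, at least 60 reads and precision weights.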

Additional observations from a re-analysis of the deposited data

How the results depend on the processing

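With 25 members called lower and 0 higher at maturation, the count of lower calls was 9 with no filter on low values (0.834% of all genes, against 3.09%), 0 with only the compared groups (0%) and 41 with precision weights (11%). Leaving out each library gave 0 to 21 lower calls and 0 to 2 higher calls, with 0 lower calls without Treat_MII_1 or Treat_MII_2 and 11 without either WT_FGO library. The median maturation difference of the members (-2.47) was -2.77 at a mean of at least 5 FPKM, -2.01 with centring and -2.16 with at least 60 reads, and ran from -2.84 to -2.08 over libraries left out. In the treatment contrast, where 0 members were called, 1 was called higher with no filter (0.12% of all genes) and 2 with precision weights (0.462%). Calls over libraries left out are given above, beside the shares of all genes. The median of the treatment contrast (1.14) was 0.71 with at least 60 reads, 0.52 with precision weights and 0.40 to 1.34 over libraries left out. Of treated oocytes against WT_FGO, the 8 lower calls (0.998% of all genes) became 5 with a pseudocount of 0.1 (0.674%), 5 with no filter (0.317%), 1 with only the compared groups (1 of 15129 genes) and 37 with precision weights (13.8%), and 2 to 5 over libraries left out (2 without either Treat_MII library, 3 without either WT_MII library), with 0 to 4 higher calls. The median (-1.73) was -1.39 with centring, -1.33 with at least 60 reads and -2.07 to -1.42 over libraries left out. For treated oocytes against WT_FGO, the share of members called lower without either WT_FGO library was near the share over all genes. Without a Treat_MII or WT_MII library it was above that share. The share of members called higher was below or near that of all genes in each of these fits. The causes were not tested.

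Pooled log2 ratios of WT_MII to WT_FGO changed as follows without the member with the most reads of each complex: all members from -1.96 to -2.38, complex I from -2.33 to -2.69, complex II from -0.27 to -0.85, complex III from -2.64 to -2.32, complex IV from -1.64 to -1.91 and complex V from -1.81 to -2.86. As sums of FPKM, complex I was at -1.97, complex III at -2.42 and complex V at -2.51. Without members with over 20% of words elsewhere, complex III was at -2.86 and complex IV at -1.29. For the treatment, complex III (0.42) was at 0.19 as a sum of FPKM, 0.11 without its member with the most reads and 0.71 without repeated members, complex V (0.35) at 0.97 without Atp5b, and the assembly factors turned from 0.50 to -0.19 without their member with the most reads. Complex II at maturation ran from -0.66 to 0.037 over libraries left out. Single members turned in 3 cases at maturation, none of them called: Atp5b to 0.056 with centring, Sdha to -0.088 without WT_FGO_1 (up to 0.64 over libraries left out) and Sdhd to 0.72 without WT_MII_1 (down to -1.83).

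With the replicate number as a block, 23 members were called lower at maturation (2.21% of all genes), and 22 of the 25 were still called. Under treatment 0 were called (0% of all genes), and 8 were called lower in treated oocytes against WT_FGO (0.489%). The numbers were not taken to pair the libraries. Depth limits single members: 27 of 86 had at least 60 reads over the 6 libraries. When only genes with that many reads were fitted, 17 of these 27 were called lower at maturation, against 18.8% of 2736 genes.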
